A study of Mus musculus with 6 samples.

Results

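Mesenchymal transcription factors were examined here through 10 genes: Zeb1, Zeb2, Twist1, Twist2, Snai1, Snai2, Foxf1, Foxf2, Tcf21 and Prrx1. They were taken as all probe sets annotated to 1 of these genes alone, which gave 26 of the 45037 probe sets of the array other than controls, and 10 of 18193 genes with such a probe set. The members were chosen by their known role and with the log2 differences between the DsRed groups already in view, so those differences are a description, and calls made on them by the fit over all probe sets support nothing. RNA came from bladder epithelium of mice of an FVB/N x C57BL/6 background at postnatal day 7, loosened by trypsin, dissected free and digested to single cells. Cells were labelled DsRed-positive or DsRed-negative, with 3 arrays in each group numbered 1, 2 and 5, and the RNA on every array had gone through 2 rounds of amplification. All samples share the labelled allele B6;129P-Upk1btm1Zhang/J, named for Upk1b, which encodes a plaque protein of the urothelium. How DsRed cells were separated, what drives DsRed beyond that allele, and whether arrays of a group came from separate animals is not given in the labels. Samples were not pooled, per the labels, and p-values cover only the spread among these samples, which may be technical in part. Sex-linked signals given below set array 1 of each group apart from arrays 2 and 5. Whether arrays 2 and 5 of a group came from separate animals remains unknown.

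Transcription factors of this group bind DNA and hold cells in a mesenchymal state. Zeb, Snail and Twist proteins silence epithelial genes such as E-cadherin when epithelial cells convert to mesenchymal ones, a change called epithelial-mesenchymal transition. Zeb and Snail proteins do so by binding short E-box elements through zinc fingers, while Twist proteins and Tcf21 are basic helix-loop-helix factors that pair with E proteins. Foxf1 and Foxf2 are forkhead factors of the mesenchyme around gut and bladder that respond to hedgehog signals from the epithelium, Tcf21 marks visceral mesenchyme and fibroblast progenitors, and Prrx1 is a homeobox factor of mesenchyme.

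The E-box bound by Zeb and Snail proteins is CACCTG, which reads CAGGTG on the opposite strand. It was searched in the 250 bases before each start site in RefSeq's GRCm38.p6 promoter table. Among 17 epithelial genes known as targets of Snail, Zeb or Twist, 11 had a window and 8 of these held the element. The share was 19.4% of all 27025 genes with a window. A gene counted if any of its windows held the element, and by window the shares were 56.2% and 17.2%. The list was made of known targets of such factors, so nothing is read from its share. Of 7 members with a window, Snai1 alone held it, and windows for Zeb1, Snai2 and Foxf1 were not found. For a gene with several windows, the one with the most copies is printed. The windows below belong to the epithelial targets that were measured here and held at least 2 copies (Crb3, Ocln, Cldn7 and Epcam), and to Snai1. They are written 5′ to 3′ with every CACCTG or CAGGTG in capitals, and a match is a match of letters and no evidence of binding.
Crb3, chr17:57061951-57062200, plus strand: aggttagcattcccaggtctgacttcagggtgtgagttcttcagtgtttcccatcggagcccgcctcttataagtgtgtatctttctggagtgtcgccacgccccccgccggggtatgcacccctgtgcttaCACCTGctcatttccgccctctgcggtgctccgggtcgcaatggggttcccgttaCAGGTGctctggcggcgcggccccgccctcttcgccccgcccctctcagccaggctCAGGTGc
Ocln, chr13:100552499-100552748, minus strand: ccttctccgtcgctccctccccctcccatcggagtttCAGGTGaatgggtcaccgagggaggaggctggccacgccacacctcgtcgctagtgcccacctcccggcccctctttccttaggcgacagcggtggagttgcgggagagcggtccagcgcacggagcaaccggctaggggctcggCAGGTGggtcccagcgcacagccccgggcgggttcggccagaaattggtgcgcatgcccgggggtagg
Cldn7, chr11:69965171-69965420, plus strand: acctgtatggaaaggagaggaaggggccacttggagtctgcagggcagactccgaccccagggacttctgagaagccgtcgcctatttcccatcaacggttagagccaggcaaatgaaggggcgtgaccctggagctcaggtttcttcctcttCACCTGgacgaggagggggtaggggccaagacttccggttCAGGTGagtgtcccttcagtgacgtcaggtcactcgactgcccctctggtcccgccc
Epcam, chr17:87635729-87635978, plus strand: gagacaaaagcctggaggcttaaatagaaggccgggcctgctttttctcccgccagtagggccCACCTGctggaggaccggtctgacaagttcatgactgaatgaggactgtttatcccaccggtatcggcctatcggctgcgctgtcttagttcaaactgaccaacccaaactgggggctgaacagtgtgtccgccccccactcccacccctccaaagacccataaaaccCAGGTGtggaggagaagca
Snai1, chr2:167537945-167538194, plus strand: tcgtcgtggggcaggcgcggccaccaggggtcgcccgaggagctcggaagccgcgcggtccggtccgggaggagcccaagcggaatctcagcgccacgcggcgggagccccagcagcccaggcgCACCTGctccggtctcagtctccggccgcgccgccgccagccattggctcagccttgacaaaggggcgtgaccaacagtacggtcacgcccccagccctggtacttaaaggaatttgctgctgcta
In Crb3, a polarity gene, the element began at -118, -63 and -7 relative to the start. In Snai1 the single copy began at -126.

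Values are normalized log2 signals, in which 1 unit is a doubling. Each array has a control level, between 7.41 and 8.03, below which signal cannot be told from that of 27 bacterial control probe sets. Levels are compared between arrays for 1 probe set and not between genes, because probe sets differ in their response. The Upk1b signal was 16.48 to 16.70 in the DsRed-positive and 11.53 to 13.27 in the DsRed-negative arrays. Both arrays numbered 1 stood apart from their labels, which give male for all 6: Xist was 15.48 and 15.08 there and at most 8.89 elsewhere, and the Y-linked gene Eif2s3y was 5.44 and 6.32 against at least 11.78. Results are therefore also given without both of these arrays, which leaves 2 against 2. That setting called 927 probe sets higher and 1253 lower, against 2605 and 2600 with all arrays. Shares given beside counts are those with all arrays. Of 8 fibroblast markers all 8 were called lower in DsRed-positive cells (limma adjusted p under 0.05), against 11.3% of all genes. Their mean signal was 9.48 to 9.99 against 15.55 to 15.84, and none lay at the control level in all DsRed-positive arrays. Smooth muscle markers averaged 7.20 to 7.78 against 11.36 to 12.07, and endothelial markers 7.85 to 7.97 against 9.84 to 10.73. The part of these cell types in the differences of the members was not tested. In such bulk samples, fewer cells of a type and less RNA per cell cannot be told apart.

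By the brightest probe set of each gene, Zeb1 showed the largest difference of the members; with the probe sets of a gene averaged it was -2.57, smaller than -4.49 for Foxf1, -4.19 for Twist2, -3.11 for Tcf21 and -2.87 for Twist1. Its brightest probe set read 14.17, 13.83 and 13.83 in DsRed-negative arrays 1, 2 and 5, and 6.49, 6.04 and 5.96 in DsRed-positive arrays of the same numbers. All DsRed-positive values lay below the control level, so Zeb1 was at least 87.5-fold lower there, with a fitted log2 difference of -7.78 ± 0.33 (SE). Deposited signals were 18295.27, 14077.84 and 14152.34 against 39.53, 18.63 and 17.78. Another Zeb1 probe set differed by -1.30 ± 0.32, and its DsRed-positive arrays stayed above their control levels at 7.74 to 8.21. The other two Zeb1 probe sets lay at or below the control level in all 6 arrays.

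Zeb2, the paralogue of Zeb1, gave different sizes on its 5 probe sets. The probe set with the largest difference read 11.05, 10.60 and 10.09 in the DsRed-negative arrays and 6.57, 6.53 and 6.15 in the DsRed-positive ones, at least 8.51-fold lower. A second gave 10.06, 10.05 and 9.04 against 6.71, 7.33 and 6.15, at least 4.68-fold lower. The groups did not overlap on either. The brightest Zeb2 probe set, in contrast, overlapped between groups, with 8.83, 10.20 and 9.49 against 8.80, 9.12 and 7.93, and a difference of -0.89 ± 0.49 (SE). A gene-level value for Zeb2 therefore depends on the probe set: the mean of all 5 gave -2.15. On 3 Zeb2 probe sets the DsRed-negative values were highest in array 1 and lowest in array 5. For 1 of these, arrays 1 and 2 were nearly tied at 10.06 and 10.05. Its deposited signal was higher in array 2 (1103.51) than in array 1 (1046.85). Zeb2 is also made by leukocytes. Of the 6 leukocyte markers, Laptm5, Ptprc and Tyrobp had the same order in these arrays, whereas Cd52, Coro1a, Csf1r and the mean of the list (11.96, 11.23 and 11.48) did not. All 6 leukocyte markers were called lower in DsRed-positive cells, against 11.3% of all genes. Their mean signals were 7.50 to 7.83 against 11.23 to 11.96, and Coro1a was at the control level in all DsRed-positive arrays. The part of leukocytes in the Zeb2 difference was not tested.

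**Figure D1:**
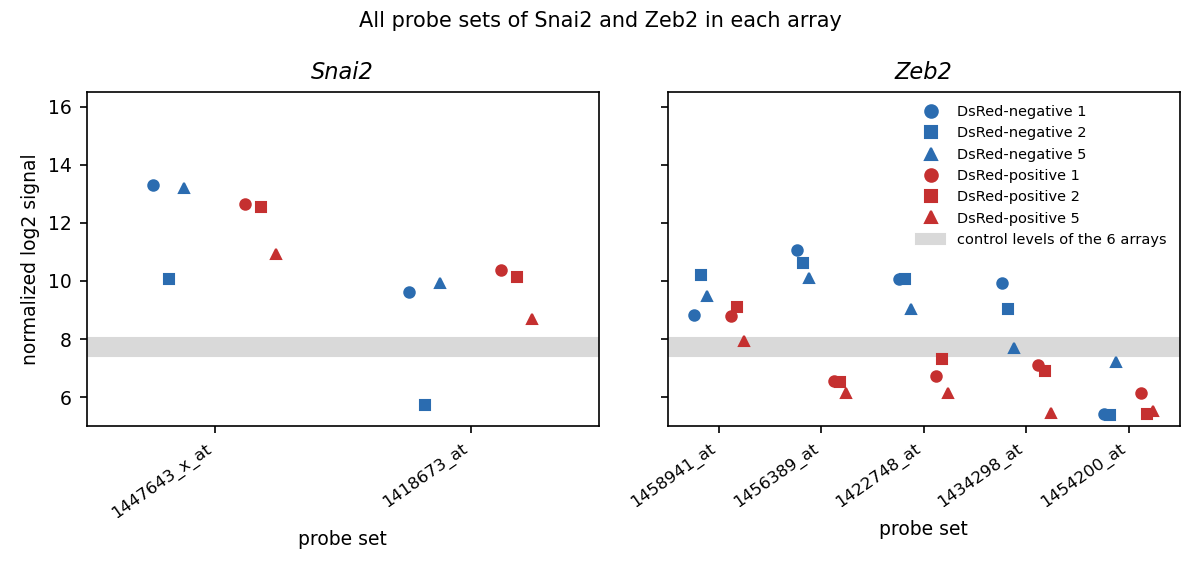
Normalized log2 signal of both Snai2 and all 5 Zeb2 probe sets, with 1 symbol per array (blue DsRed-negative, red DsRed-positive, shape by array number) and the control levels as a grey band. Snai2 overlaps between groups with DsRed-negative 2 lowest, and Zeb2 separates the groups on some probe sets and not on the brightest.

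Both Twist genes were higher in DsRed-negative cells. Twist2, a factor of dermal and other fibroblasts, read 11.69, 11.56 and 12.73 in the DsRed-negative arrays against 7.51, 7.41 and 8.49, a log2 difference of -4.19 ± 0.47 (SE). DsRed-positive array 5 was the highest of its group and the only one above its control level, and DsRed-negative array 5 was the highest of the other. Twist1 read 9.37, 8.92 and 9.64 against 5.69, 7.60 and 6.02, a difference of -2.87 ± 0.54. The groups did not overlap on either gene. For Twist1 DsRed-positive array 2 was the only one above its control level.

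The forkhead genes behaved alike in direction. Foxf1, which the hedgehog signal of the epithelium induces in neighbouring mesenchyme, read 14.62, 14.61 and 14.35 in the DsRed-negative arrays and 8.63, 8.62 and 7.97 in the DsRed-positive ones, a log2 difference of -6.12 ± 0.34 (SE), or 69.5-fold. All DsRed-positive values of this probe set were above their control levels. The second Foxf1 probe set read 9.37, 9.86 and 9.79 against 7.46, 6.31 and 6.66 and was at least 4.54-fold lower, with all DsRed-positive values at or below the control level. Foxf2 read 11.44, 11.63 and 11.09 against 7.42, 8.46 and 5.72, a difference of -4.18 ± 0.66, with DsRed-positive array 2 the only one of its group above its control level. The spread among DsRed-positive arrays (SD 1.38, n = 3) was larger for Foxf2 than for the brightest probe sets of the other members in that group. The dimmer Foxf2 probe set lay at or below the control level in all 6 arrays.

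Tcf21 read 12.34, 12.53 and 12.95 in the DsRed-negative arrays and 7.21, 6.39 and 8.29 in the DsRed-positive ones, a log2 difference of -5.31 ± 0.51 (SE). DsRed-positive arrays 1 and 2 lay at or below their control levels, so the size of the difference is uncertain. Array 5 was the highest in both groups, as it was for Twist2. A dimmer Tcf21 probe set differed by -0.91 ± 0.42 without overlap. The fibroblast marker mean was also highest in array 5 of the DsRed-negative group (15.84), whereas among DsRed-positive arrays it was 9.99 in array 1, 9.48 in array 2 and 9.95 in array 5.

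Snai1 and Prrx1 were dim. Snai1, a zinc finger repressor that acts at the start of epithelial-mesenchymal transition, read 8.16, 8.06 and 8.04 against 7.44, 7.26 and 7.63. The DsRed-negative values lay just above their control levels of 7.71, 7.69 and 8.03, and the difference was -0.64 ± 0.31 (SE). The groups did not overlap, but a difference this close to the control level says little about its true size. Prrx1 had 6 probe sets, of which 3 lay at or below the control level in all 6 arrays. The brightest read 8.03, 7.75 and 9.47 against 7.28, 6.99 and 6.08, a difference of -1.64 ± 0.55 (SE) that was not called. By group means it was at least 1.90-fold lower. DsRed-negative arrays 1 and 2 lay close to their control levels of 7.71 and 7.69, so this bound is not firm. The second, with a difference of 0.25 ± 0.48, overlapped between groups.

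Snai2, the close relative of Snai1, overlapped between groups on both of its probe sets. Its brighter probe set read 13.31, 10.08 and 13.18 in the DsRed-negative arrays and 12.66, 12.53 and 10.93 in the DsRed-positive ones, a difference of -0.15 ± 0.92 (SE). The other read 9.61, 5.72 and 9.94 against 10.39, 10.14 and 8.69, a difference of 1.32 ± 1.10. DsRed-negative array 2 was lowest on both probe sets, and DsRed-positive array 5 was lowest of its group on both. Every DsRed-positive value was above its control level, so Snai2 signal was measured in all DsRed-positive samples. Without DsRed-negative array 2 the difference of the brighter probe set was -1.21, and without DsRed-negative array 1 or 5 or DsRed-positive array 5 it was 0.41, 0.36 and 0.40, so its sign rests on single arrays. Without both arrays numbered 1 it was 0.08, and after median centring of the arrays 0.44. The brighter probe set carries the suffix of sets whose probes can also match other transcripts. Krt15, a keratin of basal epithelial cells, was 12.13, 11.79 and 11.24 against 15.13, 14.52 and 13.30, and Trp63, the master factor of basal epithelium, was 11.39, 11.92 and 10.67 against 13.98, 12.27 and 14.13. Krt14, another basal keratin, was 10.15, 9.51 and 10.21 against 11.88, 12.94 and 11.16. These 3 genes were named after the Snai2 values were seen. Like Snai2, Krt14 was lowest in array 2 of the DsRed-negative and array 5 of the DsRed-positive group. The Krt14 probe set carries the same suffix as the brighter Snai2 probe set. Krt15 was also lowest in DsRed-positive array 5, but Krt15 and Trp63 were not lowest in DsRed-negative array 2.

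**Figure D2:**
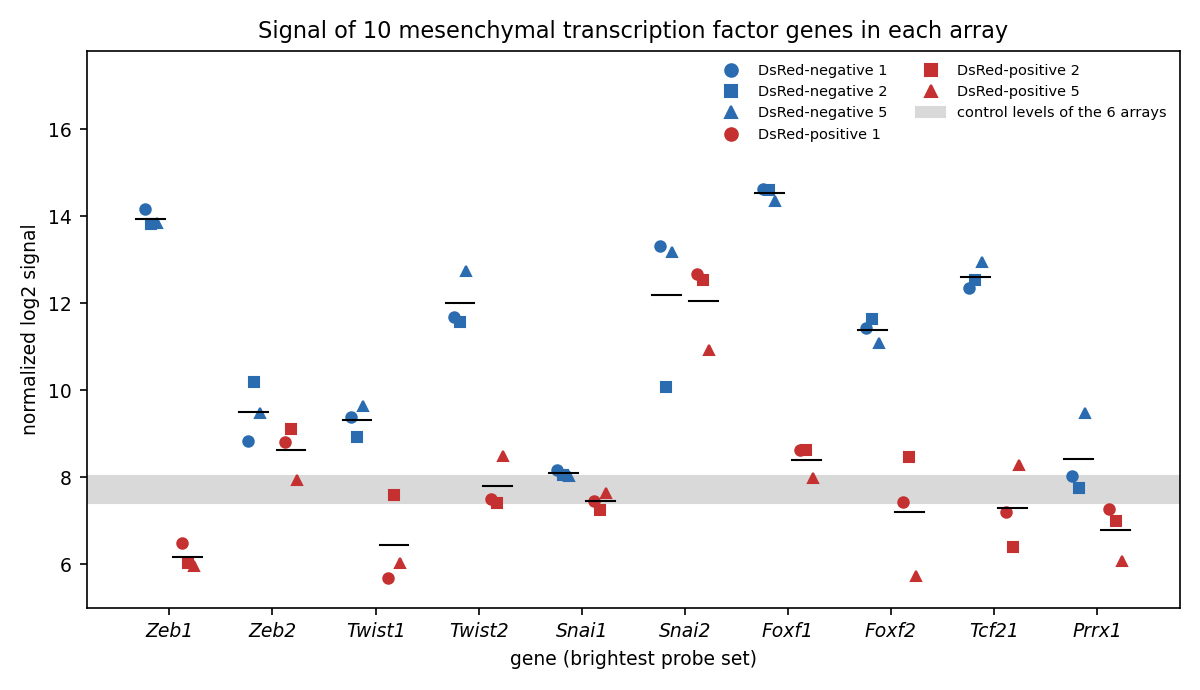
Normalized log2 signal (y axis) of the brightest probe set of each of the 10 genes (x axis), with 1 symbol per array, black lines at group means and the control levels of the arrays as a grey band. Zeb1, Foxf1 and Tcf21 show the widest separation, and Snai2 and Zeb2 overlap between groups.

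Across all 26 member probe sets, 18 passed the filter on dim signal, and 22 had a negative difference. Of the 18, 11 were called lower, none higher and 7 did not pass, against 8.62% of the 30175 probe sets tested that were called lower by limma (adjusted p under 0.05). The DsRed-positive arrays all lay below the DsRed-negative ones for 14 of the 18, against 17.5% of tested probe sets. By the brightest probe set of each gene 6 of 10 were called lower, against 11.3% of 14222 genes, with a median log2 difference of -3.53 against 0.035 over all genes, and 7 genes had at least 1 probe set called lower. These counts restate the contrast through which the list came about, and nothing is read from them. Without both arrays numbered 1, 6 probe sets and the 4 genes Zeb1, Twist2, Foxf1 and Tcf21 were called lower, and the fitted differences of the 6 genes called with all arrays were -7.82 for Zeb1, -6.18 for Foxf1, -5.36 for Tcf21, -4.22 for Foxf2, -4.14 for Twist2 and -2.47 for Twist1. Leaving out both arrays numbered 1 called 1253 of all probe sets lower, against 2600 with all arrays. Without DsRed-positive array 1 alone, Twist1 (-2.49) was not called. Over all probe sets 2605 were called higher and 2600 lower, and higher calls made up 38.8% of calls with the values as deposited and 67.8% with arrays centred on their medians, and the median difference over all tested probe sets was 0.09, and -0.19 and 0.35 under these alternatives.

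**Figure D3:**
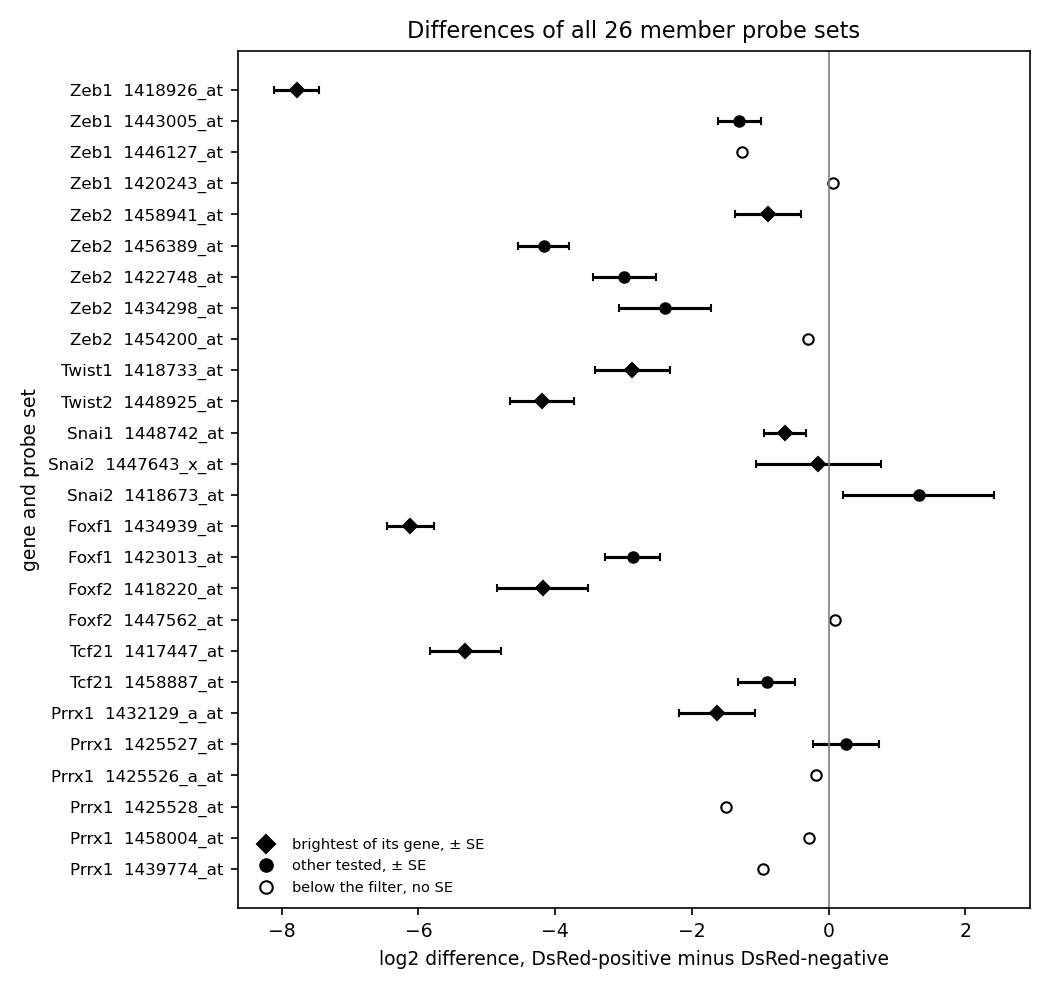
Log2 difference (x axis, DsRed-positive minus DsRed-negative) of all 26 member probe sets (y axis), with bars of 1 SE for those tested, diamonds for the brightest of each gene and open circles for those below the filter. Probe sets of Zeb1, Zeb2, Foxf1 and Tcf21 differ in size within a gene, from -7.78 to 0.06 for Zeb1.

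The genes whose profile over the 6 arrays was most like the mean profile of the 10 members were Clec11a, Gpc1, Ifitm3, Gask1b and Cd40. Their root mean square difference from it was 0.16, 0.17, 0.20, 0.20 and 0.20 log2 units. Clec11a, a secreted growth factor, read 13.24, 12.91 and 13.39 in the DsRed-negative arrays against 10.12, 10.40 and 9.77. That its groups did not overlap follows from its match to the member profile, and nothing is read from it.

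Other transcription factors of mesenchyme did not all differ in the direction of the members. Of 23 listed genes 16 were tested: 4 fell in DsRed-positive cells, 12 did not pass and none rose, against 11.3% of all genes called lower, at a median log2 difference of -0.33. Hand2, a basic helix-loop-helix factor of mesenchyme, was at least 11.97-fold lower, although 1 of its 3 probe sets was called. Hic1, a repressor marking mesenchymal progenitors, fell by 2.24 ± 0.34 (SE, limma adjusted p = 0.00379). Prrx2, the relative of Prrx1, was at least 4.76-fold lower (limma adjusted p = 0.0144), but did not pass without DsRed-positive array 1, 2 or 5 (0.0540, 0.0544 and 0.0504). The orphan receptor gene Nr2f1 fell by 2.27 (limma adjusted p = 0.0193, and 0.0751 without DsRed-positive array 1). Foxc1 (-0.11), Nr2f2 (-0.39) and Osr1 (-0.19), named after their values were seen, did not pass. Osr1 lay at or below the control level in 2 arrays of each group, so its value says little. Snai3, the third Snail gene, was 9.37, 6.68 and 9.04 in the DsRed-negative arrays against 10.28, 10.61 and 9.48, a difference of 1.76 that did not pass (limma adjusted p = 0.143), and like Snai2 it was lowest in DsRed-negative array 2. Without both arrays numbered 1, Hic1 and Hand2 were called lower and Meox2 higher (2.94), which with all arrays had a value of 1.96 and did not pass. Prrx2 and Nr2f1 then reached adjusted p values of 0.113 and 0.148. That setting called 1253 of all probe sets lower and 927 higher, against 2600 and 2605 with all arrays.

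Partners of the helix-loop-helix members differed from gene to gene. E proteins are the obligate partners of Twist and Tcf21, and Id proteins capture E proteins and so inhibit them. Of the 7 genes, 3 fell, 4 did not pass and none rose, against 11.3% of all genes called lower, with a median log2 difference of -0.53. Among E protein genes Tcf4 fell by 2.67 ± 0.32 (SE, limma adjusted p = 0.00134), from 14.52 ± 0.04 (SD, n = 3) in DsRed-negative to 11.85 ± 0.26 in DsRed-positive arrays, and 2 of its 6 probe sets were called. Tcf12 (-0.26) and Tcf3 (0.10) did not pass. Among inhibitors, Id3 fell by 4.39 ± 0.37, or 21.0-fold (limma adjusted p = 0.000322), reading 13.47, 14.13 and 13.82 against 9.27, 9.86 and 9.11. Id4 fell by 2.28 (adjusted p = 0.0298) but did not pass without DsRed-positive array 1, 2 or 5 (0.0935, 0.0674 and 0.106), or after median centring of the arrays (0.0551). Id1 had a value of -0.53 (0.13 after median centring of the arrays) and Id2 a value of 0.09, neither passing. Of the 7, 2 fell when both arrays numbered 1 were left out, where 1253 of all probe sets were called lower, against 2600.

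Co-repressors and turnover factors of Snail and Zeb proteins mostly did not pass. Of 17 tested genes 2 fell, 15 did not pass and none rose, against 11.3% of all genes called lower, at a median log2 difference of -0.18. The co-repressors Ctbp1 (-0.47) and Ctbp2 (0.56), the deacetylase genes Hdac1 (-0.34) and Hdac2 (-0.35) and the kinase gene Gsk3b (0.33), which marks Snail for breakdown, did not pass. Lats2, a kinase that acts on Snail, fell by 3.49 ± 0.48 (SE, limma adjusted p = 0.00258), on 3 of its 6 probe sets. Wtip, a LIM protein that binds Snail, fell by 1.41 (adjusted p = 0.0320) but did not pass without DsRed-negative array 1 or 5 (0.0604 and 0.0759) or DsRed-positive array 1 or 5 (0.126 and 0.110). After median centring of the arrays its value was -0.80 (0.167). Ezh2, the Polycomb methyltransferase, had a value of 1.66 that missed the threshold (limma adjusted p = 0.0513). It passed without DsRed-negative array 2 (0.0475), with the values as deposited (0.0364), after median centring (2.27, 0.0109), with the offset or the filter at the 50th percentile (0.0211 and 0.0398) and under 2 other settings (0.0254 and 0.0278). Ezh2 did not pass without DsRed-negative array 1 or 5 (limma adjusted p = 0.0568 and 0.0802) or DsRed-positive array 1, 2 or 5 (0.160, 0.101 and 0.143). Nor did Ezh2 pass with the array number as a replicate block (0.0789) or without both arrays numbered 1 (0.179). The histone demethylase gene Kdm1a had a value of -1.03 (0.118). Without both arrays numbered 1, none of the 17 was called, and Lats2 had an adjusted p of 0.0603. Over all probe sets 1253 were then called lower, against 2600 with all arrays.

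Epithelial genes that these factors are known to repress were higher in DsRed-positive cells. Of 15 tested, 14 rose, 1 (Pkp3, 3.23) did not pass and none fell, against 9.21% of all genes called higher, with a median log2 difference of 3.23. Earlier results on several of these genes were known, so this is no independent support. The splicing regulators Esrp1 and Esrp2 rose by 4.63 ± 0.48 and 4.98 ± 0.54 (SE, limma adjusted p = 0.000771 and 0.000908), E-cadherin (Cdh1) by 4.73 ± 0.41 and keratin Krt18 by 3.98 ± 0.31. Esrp2 was 9.04, 6.97 and 8.41 in the DsRed-negative arrays and 13.04, 13.11 and 13.22 in the DsRed-positive ones, so the groups lay far apart. Of the genes whose promoter windows are printed, Ocln, a tight junction protein, rose by 4.75, claudin Cldn7 by 4.54 and the adhesion molecule Epcam by 3.19. Crb3 rose by 1.23 ± 0.35 (limma adjusted p = 0.0493), a call that was lost without DsRed-negative array 1 or 5 (0.106 and 0.0937) or DsRed-positive array 1, 2 or 5 (0.153, 0.164 and 0.0901), and with the values as deposited (0.0650), an offset of 1 (0.0638) or no filter (0.0655). Leaving out both arrays numbered 1, 11 of the 15 rose, where 927 of all probe sets were called higher, against 2605 with all arrays.

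Mesenchymal genes of epithelial-mesenchymal transition fell in 14 of 16 cases, 2 did not pass and none rose, against 11.3% of all genes called lower, at a median log2 difference of -6.40. The collagen cross-linking enzyme Lox fell by 8.12, the matrix glycoprotein Tnc by 7.85 ± 0.44 (SE, limma adjusted p = 9.28e-05), and the matrix protein Sparc fell by 6.79 and periostin (Postn) fell by 6.57. Tnc read 14.95, 14.76 and 14.52 against 6.99, 7.59 and 6.10. The exceptions were S100a4 (-0.28) and the integrin Itga5 (-0.68). Vimentin (Vim) fell by 6.31 ± 0.44 but stayed above the control level in the DsRed-positive samples, at 10.39, 10.19 and 11.57. With 2 against 2 arrays, 13 of the 16 fell, where 1253 of all probe sets were called lower, against 2600 with all arrays.

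Most genes of the hedgehog and TGF-beta pathways upstream of these factors fell. Of 12 listed, 9 fell, 2 did not pass and 1 rose, against 11.3% of all genes called lower and 9.21% called higher, at a median log2 difference of -3.07. Shh, the ligand, was the gene that rose (4.12 ± 0.56 SE, limma adjusted p = 0.00237). The hedgehog inhibitor Hhip and the factors Gli2 and Gli1 were at least 58.3-fold, 58.1-fold and 10.6-fold lower, and the receptor Ptch1 fell by 4.93. Of the TGF-beta ligands, Tgfb2 was at least 10.98-fold lower and Tgfb3 fell by 5.01, whereas Tgfb1 had a value of 0.31 and did not pass. Tgfb1 was dim, at or below the control level in 2 DsRed-negative arrays. The receptor Tgfbr1 fell by 1.59 and Tgfbr2 (-0.59) did not pass. Ptch1, Tgfbr1 and the further list genes Smo and Gli3 were each called on 1 of 3 probe sets, and Hhip on all 4. With 2 against 2 arrays, 5 fell and 1 rose. Over all probe sets that setting called 1253 lower and 927 higher, against 2600 and 2605 with all arrays.

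**Figure D4:**
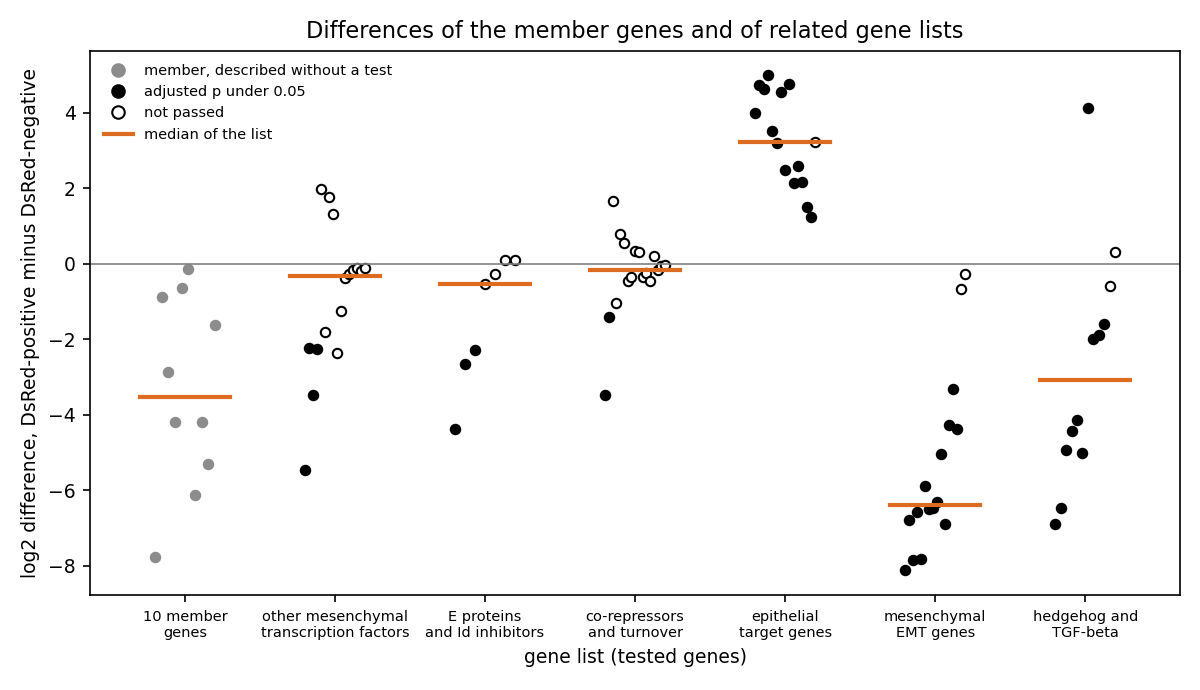
Log2 difference (y axis, DsRed-positive minus DsRed-negative) of the 10 member genes and of tested genes of 6 related lists (x axis), 1 point per gene, with orange lines at list medians, filled black points for calls at an adjusted p under 0.05 and grey for members, which are described without a test. Medians run from -6.40 for mesenchymal genes to 3.23 for epithelial targets, with -0.53 for E proteins and Id genes and -0.18 for co-repressors.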

How the data were processed

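The deposited table holds linear probe set intensity of Affymetrix GeneChip mouse arrays, 1 array per sample. Per the submitters' processing notes GCOS was used, with version and settings not given. Every array had the same trimmed mean of 1500.01 (2% trimmed at each end), so the authors' values had been scaled. An offset of 39.84 (20th percentile) was added before log2. Array medians spanned 0.74, above the limit of 0.2, so values were quantile normalized. The offset shrinks differences of dim probe sets.

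Of 45101 probe sets 64 controls were removed, and 30175 whose average signal exceeded 7.18, the 33rd percentile, were tested with limma 3.58.1 in R 4.3.3 (lmFit and eBayes, Benjamini-Hochberg over all of them). Only the filter and limma fit were tested on simulated data, not the offset, the normalization, the control level or the choice of probe set. Symbols came from the platform annotation, updated by gene ID. A gene is represented by its brightest single-gene probe set. The control level is the 95th percentile of 27 control probe sets, and a fold is a lower bound (at least N) if a whole group lay no higher than it.

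The members and lists were chosen with earlier results of these data known. Named genes are all members, the 4 smallest p of each other list, up to 3 called members against a list's direction, and the 5 nearest profiles; others are said to be named after their values were seen, or are genes with a printed promoter, further list members given as values beside the counts, or markers. Lists of smooth muscle, endothelium, Schwann cell and neuron, mesothelium and urothelium markers were also computed. Of tested genes, 4 of 5, 4 of 5 and 0 of 4 of the smooth muscle, endothelium, and Schwann cell and neuron lists were called lower. Over all genes 11.3% were. For mesothelium 1 of 1 and for urothelium 10 of 10 were called higher, against 9.21% of all genes.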

Additional observations from a re-analysis of the deposited data

How the results depend on the processing

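The differences of the members ranged over the alternatives from -8.98 to -2.57 for Zeb1, -6.38 to -4.49 for Foxf1, -5.82 to -3.11 for Tcf21, -5.00 to -2.04 for Foxf2, -4.50 to -3.32 for Twist2 and -4.02 to -1.50 for Twist1. Since the members were chosen with this contrast known, their calls say nothing about stability. The count of member genes called lower, 6, ranged from 5 to 6 without 1 array, was 8 with the values as deposited, 7 when a gene's probe sets were averaged, 5 with a filter at the 50th percentile and 4 without both arrays numbered 1. Averaging gave -2.57 for Zeb1, -2.04 for Foxf2 and -3.11 for Tcf21, smaller because the dimmer probe sets of these genes differed less. For Zeb2 averaging gave a larger difference, -2.15 against -0.89 on the brightest probe set.

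Over all probe sets, higher calls numbered 2605 with all arrays, 1074 to 2613 without 1 array, and 4873 after centring arrays on their medians. Lower calls numbered 2600, and 1735 to 2392 without 1 array. Without both arrays numbered 1 the counts were 927 higher and 1253 lower, with fewer samples. Id1 turned from -0.53 to 0.13 under median centring, and passed in neither. Of the named list genes' alternatives, 450 kept direction and call, 30 lost the call and 11 gained it.

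Correlations of deviations between arrays of the same number were 0.15, 0.04 and 0.05 over probe sets, and each array correlated best with its own number. Both arrays numbered 1 also shared high Xist and low Eif2s3y signal. These correlations cannot decide whether the numbers pair samples, because deviations were taken from means of 3 arrays. The main fit left the numbers out. With the number as a replicate block, 6 member genes and 10 member probe sets were called lower, with 2123 higher and 2281 lower over all probe sets, and Wtip (adjusted p = 0.0691) and Crb3 (0.0736) lost their limma calls. The 3 arrays of each group and signals near the control level limit Snai1 and Prrx1.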

Other observations

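The genes whose profile over the 6 arrays lay nearest that of the brighter Snai2 probe set were Efhd1 and Plcd3, with root mean square differences of 0.16 and 0.21 log2 units. They were looked for after the Snai2 values had been seen. Efhd1 read 8.85, 5.77 and 8.43 in the DsRed-negative arrays and 8.10, 8.14 and 6.22 in the DsRed-positive ones. Plcd3 read 9.16, 6.03 and 8.78 against 8.34, 8.76 and 6.90. Both were low in DsRed-negative array 2 and DsRed-positive array 5, where they fell below the control level, as did the dimmer Snai2 probe set in DsRed-negative array 2. The mean of 9 hybridization controls was 14.32, 15.82 and 15.28 in DsRed-negative arrays 1, 2 and 5. In the DsRed-positive arrays it was 12.92, 14.14 and 14.29, so all of these lay below all DsRed-negative ones. The part of this offset in the differences of the members and lists was not tested.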
